A study of Homo sapiens with 90 samples.

Results

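The 10 genes described here, HSPA5, HERPUD1, DNAJB9, SDF2L1, XBP1, HSP90B1, PDIA4, DNAJC3, SEL1L and CRELD2, are transcribed during the unfolded protein response of the endoplasmic reticulum (ER) and are known targets of the transcription factors ATF6 and XBP1. They were taken as every probe set annotated to exactly 1 of these symbols, which gave 24 of the 54613 probe sets that are not manufacturer's controls, and 10 of the 19774 genes with a probe set of their own. HSP90B1, DNAJC3 and SEL1L had 4 probe sets each, DNAJB9 had 3, HSPA5, XBP1 and PDIA4 had 2, and HERPUD1, SDF2L1 and CRELD2 had 1. Each gene is represented below by its brightest probe set, and values of the others are given for some of the comparisons. The cells were A673, an established human Ewing sarcoma line. They were exposed for 24 h to fenbuconazole (a triazole fungicide), imazalil (an imidazole fungicide) or 2,4-D (2,4-dichlorophenoxyacetic acid, a chlorophenoxy herbicide), each at 9 concentrations from the highest, 10 µM, through 3, 1, 0.3, 0.1, 0.03, 0.01 and 0.003 µM down to 0.001 µM, or to the vehicle, 0.2% dimethyl sulfoxide (DMSO). Every group, treated or vehicle, shared the medium, the time and the 0.2% DMSO, and had 3 replicates. Each chemical's 27 treated and 3 DMSO arrays were normalized together and apart from those of the other chemicals, so levels are compared only within a chemical. A single cell line was used, no compound given to stress the ER was among the groups, and in these bulk samples fewer cells and less RNA per cell cannot be told apart.

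When unfolded proteins accumulate in the ER lumen, the membrane sensors ATF6, IRE1 (gene ERN1) and PERK (gene EIF2AK3) are activated. ATF6 is cut to release a transcription factor, IRE1 splices the XBP1 mRNA so that it encodes an active factor, and PERK slows translation while raising ATF4. ATF6 and spliced XBP1 then induce chaperones, folding enzymes and components of ER-associated degradation, which returns misfolded proteins to the cytosol for destruction. The probe sets measured total mRNA of each gene, and XBP1 splicing was not measured here.

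The element through which ATF6 and XBP1 act on many of these genes, the ER stress response element (ERSE, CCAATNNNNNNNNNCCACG), was searched on both strands of RefSeq promoter windows (GRCh38.p14, 250 bases before to 50 after a gene's start), together with its compact relative ERSE-II (ATTGGNCCACG). All 10 genes matched a window, and XBP1 and PDIA4 matched 2. The ERSE was found for 4 of the 10 genes (HSPA5, XBP1 in 1 of its windows, CRELD2, and HSP90B1 with 2 copies) and in 0.0769% of all 35116 windows. ERSE-II was found for 2 others (HERPUD1 and SDF2L1) and in 0.0541% of all windows. The sequences below are shown so that the shared element can be seen in context, and capitals mark it, written on the gene's own strand, where it can read in the reverse complement. The HSPA5 window is chr9:125241294-125241593 on the minus strand and the HERPUD1 window is chr16:56931892-56932191 on the plus strand. Shorter stretches are given for XBP1 (chr22:28800583-28800641, minus), CRELD2 (chr22:49918534-49918592, plus), HSP90B1 (chr12:103930196-103930254 and chr12:103930301-103930359, plus) and SDF2L1 (chr22:21642094-21642144, plus).
HSPA5: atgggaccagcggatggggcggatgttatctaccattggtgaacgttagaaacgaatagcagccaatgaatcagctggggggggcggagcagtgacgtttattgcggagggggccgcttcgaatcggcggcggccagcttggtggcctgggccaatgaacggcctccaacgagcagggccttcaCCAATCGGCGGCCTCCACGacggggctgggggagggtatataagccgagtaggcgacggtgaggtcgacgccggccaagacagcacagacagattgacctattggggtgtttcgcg
HERPUD1: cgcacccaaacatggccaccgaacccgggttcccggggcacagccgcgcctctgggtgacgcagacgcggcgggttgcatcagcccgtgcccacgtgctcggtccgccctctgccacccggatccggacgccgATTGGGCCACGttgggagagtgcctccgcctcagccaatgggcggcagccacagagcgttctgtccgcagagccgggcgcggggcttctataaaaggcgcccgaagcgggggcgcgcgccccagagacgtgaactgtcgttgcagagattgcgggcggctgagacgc
XBP1: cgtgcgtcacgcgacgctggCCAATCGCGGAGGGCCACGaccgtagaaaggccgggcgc
CRELD2: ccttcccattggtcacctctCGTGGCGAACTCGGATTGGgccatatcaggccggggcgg
HSP90B1, upstream copy: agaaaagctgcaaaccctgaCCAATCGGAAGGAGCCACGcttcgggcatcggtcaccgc
HSP90B1, downstream copy: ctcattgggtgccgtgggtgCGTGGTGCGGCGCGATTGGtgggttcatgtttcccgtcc
SDF2L1: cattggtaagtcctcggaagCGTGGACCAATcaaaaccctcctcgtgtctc
The 6 genes with an element carried it between positions -194 and -34 from the start. DNAJB9, DNAJC3, PDIA4 and SEL1L held neither sequence in this window. The short half-site CCACG, which is part of both elements, was present for all 10 genes, against 38.1% of all windows, and TGACGTG, a core that XBP1 can bind, was present for 0 of the 10, against 1.97%. These matches describe letters only.

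**Figure D1:**
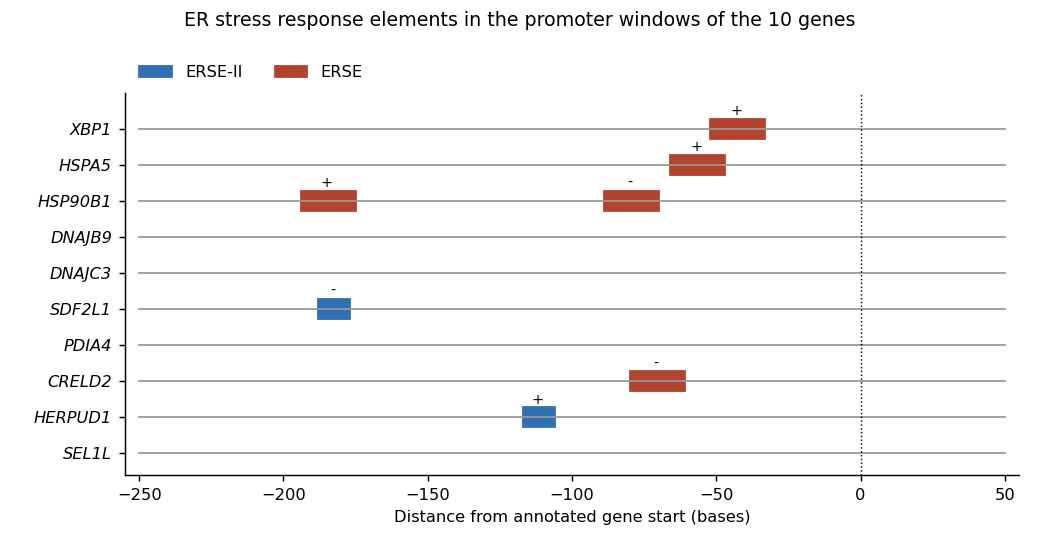
Position of each element in bases from the annotated gene start (dotted line), with a grey line for each gene's window of 250 bases before to 50 after it and the strand of the element written above each box. Elements of the ERSE type (red) are drawn for XBP1, HSPA5, HSP90B1 and CRELD2, of the ERSE-II type (blue) for SDF2L1 and HERPUD1, and for XBP1 the window that holds the element is shown.

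Identity of the cells and of the vehicle arrays was checked first. The 7 measured of 8 Ewing sarcoma markers (among them CD99, NKX2-2, STEAP1 and PRKCB) had a mean log2 intensity of 8.97 to 10.0 on every array, against array medians of 2.76 to 3.46. Mammary epithelial markers averaged 2.89 to 3.82 and hepatic markers 2.44 to 3.27, close to the array medians. The DMSO arrays carry a common label in all 3 sets, but they did not match in all of them. After centring each probe set within its set, same-numbered DMSO arrays of the imazalil and 2,4-D sets correlated at r = 0.867 to 0.878, whereas those of the fenbuconazole set correlated with them at only 0.105 to 0.198. The imazalil and 2,4-D sets therefore share their vehicle arrays, and the fenbuconazole vehicle arrays went against the label. For this reason each result at 10 µM is given against DMSO and also, without any DMSO array, against the 24 arrays at the other 8 concentrations of the same chemical.

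All 10 genes were well expressed. Their brightest probe sets lay between the 85.8 and the 99.6 percentile of all probe sets in each set, so that a fall could be read. How fully a rise would show at such levels was not tested. Across the 10 groups of a chemical the group means of a gene spanned at most 0.35 log2 units. HSPA5, which encodes the chaperone BiP and is the classical reporter of ER stress, had group means from 11.38 to 11.52 in the fenbuconazole set, from 11.90 to 12.03 in the imazalil set and from 11.93 to 12.09 in the 2,4-D set. These spans of 0.135, 0.129 and 0.160 compare with an SD within a group of up to 0.130, 0.121 and 0.120.

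None of the 10 genes changed against DMSO at any concentration of any chemical by limma's moderated test with Benjamini-Hochberg adjustment over all probe sets. Of 270 gene changes (10 genes, 9 concentrations, 3 chemicals), 0 passed an adjusted p of 0.05 and the smallest adjusted p was 0.633. The share of all probe sets called was likewise 0% for each chemical at 10 µM and 0% or 0.00183% at the lower concentrations, so the count for the 10 genes stands at its background. At an unadjusted p under 0.05 there were 4 of 270, where 6.58%, 4.53% and 4.3% of all probe set comparisons lay in the fenbuconazole, imazalil and 2,4-D sets. The 4 were CRELD2 at 0.3 µM fenbuconazole (-0.20), SEL1L at 0.01 µM imazalil (0.18), DNAJC3 at 1 µM imazalil (-0.17) and SEL1L at 0.001 µM 2,4-D (0.19), all as log2 changes. The intervals limit what could have been missed: every one of the 270 95% intervals lay within 2-fold and 264 within 1.5-fold, the widest bounds being 0.717-fold for HERPUD1 at 10 µM fenbuconazole and 1.60-fold for DNAJB9 at 1 µM fenbuconazole. The number of arrays limits this precision. According to the methods each replicate came from its own batch of cells, although the labels show nothing but a number, and a p that misses the threshold does not show that levels were equal.

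**Figure D2:**
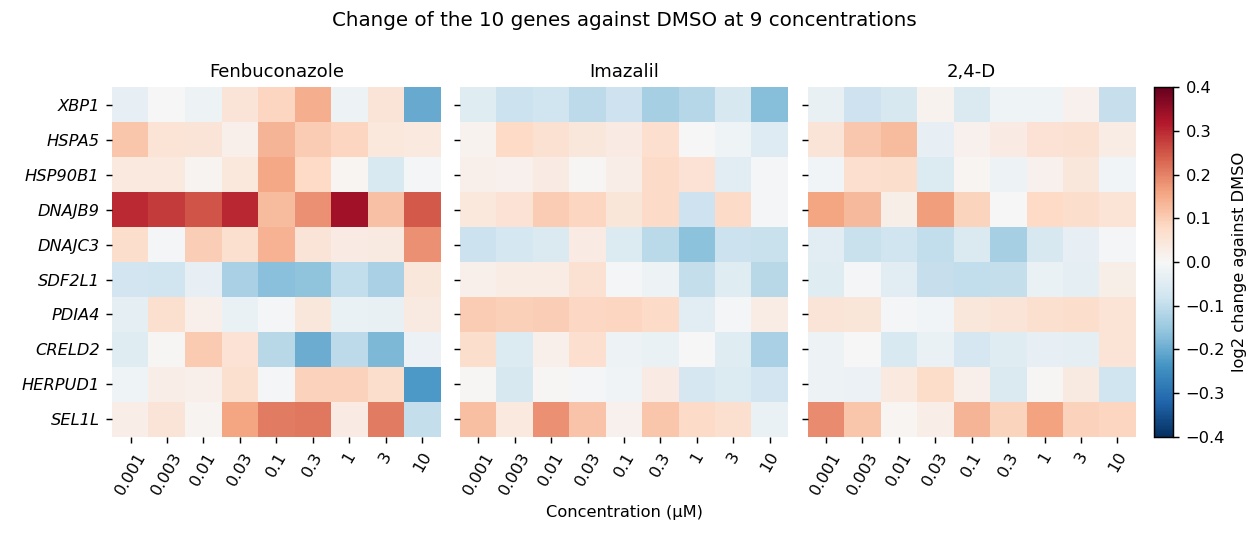
Colour gives the log2 change of the mean of 3 arrays against the mean of the chemical's 3 DMSO arrays, for the 10 genes down the vertical axis at 9 concentrations in µM along the horizontal axis of each chemical. Changes ran from -0.23 (HERPUD1, 10 µM fenbuconazole) to 0.33 (DNAJB9, 1 µM fenbuconazole), and 0 of the 270 passed the adjusted threshold.

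The transcription factor of the set, XBP1, gave some of the lowest values at 10 µM. In the fenbuconazole set its log2 intensity was 8.77, 8.99 and 8.76 at 10 µM against 9.04, 9.05 and 9.04 with DMSO, so that the groups did not overlap. The change was -0.20 (SE 0.11, n = 3 against 3, limma unadjusted p = 0.068, adjusted p = 0.737), and 5.76% of all probe sets were likewise lower without overlap. Against the other 8 concentrations it was -0.23 (SE 0.08, unadjusted p = 0.0084, adjusted p = 0.634). In the imazalil set XBP1 read 9.84, 9.97 and 9.68 at 10 µM and 9.97, 10.04 and 9.99 with DMSO, again without overlap, by a narrow margin. That change was -0.17 (SE 0.09, limma adjusted p = 1.00), with 3.66% of all probe sets lower without overlap, and it was -0.08 against the other 8 concentrations. It rested in part on replicate 3, the lowest array at 10 µM: leaving out 1 replicate or array gave -0.24 to -0.10, and -0.10 without that array. XBP1 lay below DMSO at all 9 imazalil concentrations, from -0.17 to -0.05. These 9 changes share the same 3 DMSO arrays, so they are not separate results. Other members were as 1-sided in either direction: with 2,4-D DNAJC3 lay below DMSO at all 9 concentrations and SEL1L above it at all 9. With 2,4-D the 3 arrays at 10 µM (10.14, 10.07 and 9.78) straddled the DMSO arrays (10.08, 10.12 and 10.07), and the change was -0.09 (SE 0.12). With 2,4-D none of the 10 genes lay wholly below DMSO, where 3.8% of all probe sets did.

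The luminal chaperones HSPA5 (BiP) and HSP90B1 (GRP94), which hold unfolded chains during folding, stayed close to their vehicle level. HSPA5 read 11.38, 11.49 and 11.41 at 10 µM fenbuconazole and 11.34, 11.37 and 11.44 with DMSO, a change of 0.04 (SE 0.08, 95% interval -0.13 to 0.21). At 10 µM imazalil it read 11.90, 11.88 and 11.92 against 11.97, 11.92 and 11.97, a change of -0.05 (SE 0.07), and at 10 µM 2,4-D 11.99, 12.11 and 11.87 against 12.01, 11.91 and 11.96, a change of 0.03 (SE 0.07). The groups overlapped in each case. In linear terms the intervals for HSPA5 at 10 µM ran from 0.873-fold to 1.15-fold over the 3 chemicals. Against the other 8 concentrations the HSPA5 changes were -0.04, -0.09 and -0.02. The second, dimmer HSPA5 probe set went the other way with fenbuconazole, at 0.19 (SE 0.08, 95% interval 0.02 to 0.37, limma adjusted p = 0.769), and gave -0.06 and 0.02 with imazalil and 2,4-D. Against DMSO it gave 0.10, -0.10 and -0.07. The HSP90B1 difference was -0.01 for each chemical at 10 µM against DMSO, with SEs of 0.10, 0.07 and 0.06. The dimmer probe sets of both genes passed no adjusted threshold. A pair of the HSP90B1 probe sets carries the manufacturer's suffix for probes that also match other sequences, and their values may hold signal from such copies.

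The cochaperones that work with BiP are DNAJB9 (ERdj4), DNAJC3 (p58IPK, also an inhibitor of PERK) and SDF2L1, a partner of ER J-domain proteins. DNAJC3 was the one gene of the set whose fenbuconazole arrays at 10 µM (7.65, 7.79 and 7.79) all lay above the DMSO arrays (7.54, 7.57 and 7.57). The change was 0.18 (SE 0.09, limma unadjusted p = 0.056, adjusted p = 0.726), where 5.39% of all probe sets were higher without overlap (4.31% with imazalil and 3.22% with 2,4-D, where no member was), and it was 0.12 (SE 0.07) against the other 8 concentrations. Its 3 dimmer probe sets gave 0.06, 0.13 and 0.21 against DMSO, and 1 of them gave -0.01 against the other 8 concentrations. At 10 µM imazalil DNAJC3 read 8.62, 8.83 and 8.61 against 8.83, 8.74 and 8.76 with DMSO, and with 2,4-D 8.92, 9.03 and 8.90 against 8.98, 8.91 and 8.98, with overlap in both. SDF2L1 lay below the DMSO range at 10 µM imazalil, with 8.13, 8.18 and 8.16 against 8.29, 8.32 and 8.19, as 3.66% of all probe sets did. Its change of -0.11 (SE 0.09) did not pass the test (unadjusted p = 0.24 by limma). SDF2L1 at 10 µM fenbuconazole was 0.05 above DMSO and 0.16 above the other 8 concentrations (SE 0.09). For DNAJB9, 1 vehicle array decided the sign. Its fenbuconazole DMSO arrays read 7.18, 6.30 and 6.91, the second being the lowest of all 30 values, and all 9 concentrations lay above their mean, by 0.12 to 0.33. Without that vehicle array the change at 10 µM went from 0.25 (SE 0.17) to -0.00257, and against the other 8 concentrations it was 0.01 (SE 0.11).

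**Figure D3:**
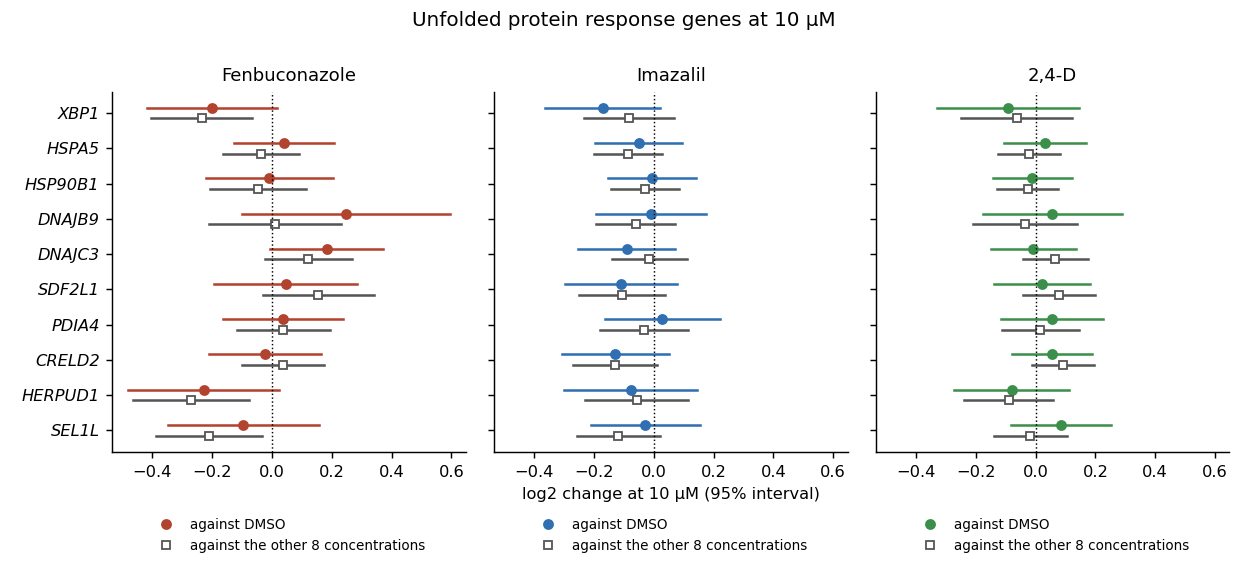
Log2 change at 10 µM with its 95% interval from limma for each gene, in filled circles against the chemical's 3 DMSO arrays and in open squares against the 24 arrays at its other 8 concentrations. Intervals against DMSO include 0 for all 10 genes with each chemical, while against the other concentrations those of XBP1, HERPUD1 and SEL1L lie below 0 for fenbuconazole only, before adjustment.

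PDIA4 (ERp72), a disulfide isomerase, and CRELD2, a secreted ER stress responsive protein with isomerase activity, represent folding of disulfide-bonded proteins. The PDIA4 difference was 0.04 (SE 0.10), 0.03 (SE 0.09) and 0.05 (SE 0.08) at 10 µM fenbuconazole, imazalil and 2,4-D against DMSO, with overlapping arrays throughout. Its dimmer probe set went the other way with the 2 azoles, averaging 8.40 against 8.46 with DMSO for fenbuconazole and 9.29 against 9.32 for imazalil. Against the other 8 concentrations that probe set gave -0.01, -0.06 and 0.11, where the brightest gave 0.04, -0.03 and 0.02. CRELD2 had the largest share among the 10 genes of variance tied to concentration in the fenbuconazole set, 62.2% against a median of 29.7% over all probe sets. Its fenbuconazole DMSO arrays read 9.54, 9.47 and 9.27, its lowest group mean was 9.23 ± 0.06 (SD, n = 3) at 0.3 µM, and at 10 µM it was back at 9.34, 9.48 and 9.39. The slope over log10 concentration was -0.04 per 10-fold (SE 0.02, limma unadjusted p = 0.047, adjusted p = 1.00), and the low means at 0.3 and 3 µM were followed by a higher one at 10 µM. At 10 µM imazalil 2 of the CRELD2 arrays (9.73 and 9.70) lay below the DMSO arrays (9.93, 9.95 and 9.91) and 1 above (9.98), a change of -0.13 (SE 0.09). At 10 µM 2,4-D CRELD2 was 0.05 above DMSO (SE 0.07).

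HERPUD1 and SEL1L serve ER-associated degradation. SEL1L is the adaptor of the HRD1 ubiquitin ligase, and HERPUD1 is a membrane protein of the same complex whose mRNA is among the most responsive to ER stress. HERPUD1 had the lowest change of the set: its arrays at 10 µM fenbuconazole read 8.61, 8.58 and 8.50, against 8.88, 8.82 and 8.69 with DMSO. The groups did not overlap, and 5.76% of all probe sets were likewise lower without overlap. Of the 24 arrays at the other fenbuconazole concentrations (8.61 to 9.07, median 8.81), 23 lay above the highest array at 10 µM. The change was -0.23 against DMSO (SE 0.12, limma unadjusted p = 0.074, adjusted p = 0.740) and -0.27 against the other 8 concentrations (SE 0.09, unadjusted p = 0.0076, adjusted p = 0.619). SEL1L at 10 µM fenbuconazole read 7.40, 7.65 and 7.24 against 7.28, 7.55 and 7.75 with DMSO, a change of -0.10 (SE 0.12). Its 3 dimmer probe sets gave 0.06, -0.29 and -0.29 against DMSO, the last on a probe set near the median level of the array. Against the other 8 concentrations, whose 24 arrays ran from 7.36 to 7.87 with a median of 7.65, SEL1L was -0.21 (SE 0.09, unadjusted p = 0.023, adjusted p = 0.747 by limma). That value was -0.11 without replicate 3, whose array was the lowest. The next lower concentrations did not share the low HERPUD1 values: at 3 µM fenbuconazole it read 8.88, 8.99 and 8.73, and at 1 µM 8.88, 8.97 and 8.80. With imazalil and 2,4-D HERPUD1 differed from DMSO by -0.08 in both, with SEs of 0.11 and 0.09, and SEL1L by -0.03 and 0.08.

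**Figure D4:**
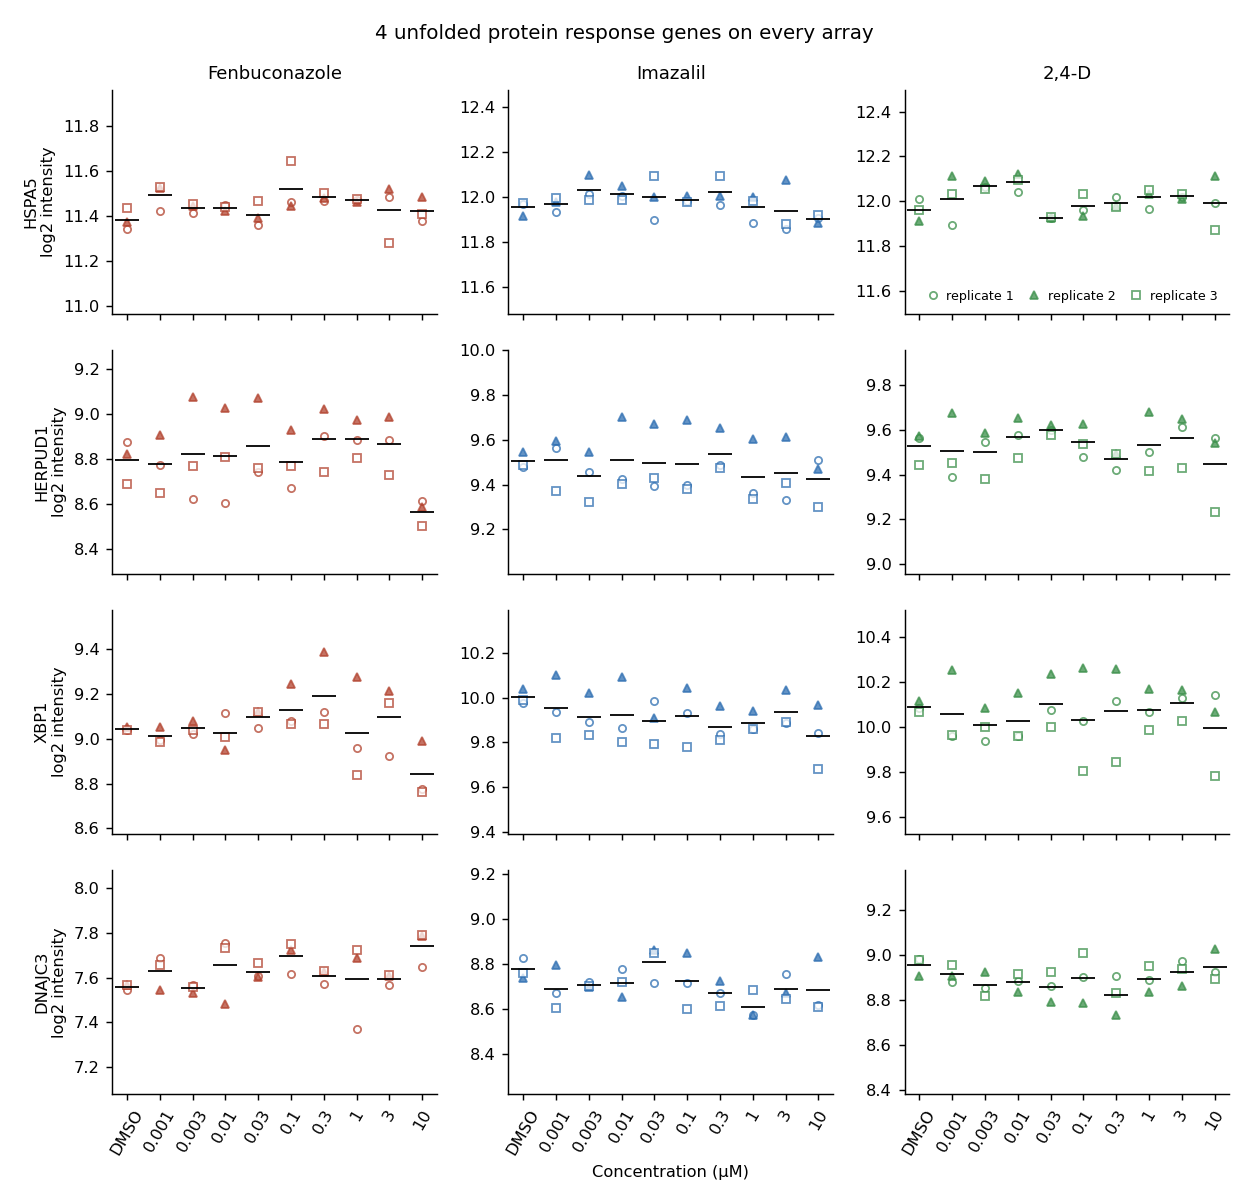
Log2 intensity of HSPA5, HERPUD1, XBP1 and DNAJC3 on each of the 30 arrays of each chemical, by concentration in µM, with a black bar at the mean of 3 arrays and the replicate number by symbol (filled triangles are replicate 2). Each vertical axis spans 1 log2 unit, so that distances are comparable between panels, and HERPUD1 at 10 µM fenbuconazole (8.50 to 8.61) is the group that stands lowest against its neighbours.

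As a list, the 10 genes were split between lower and higher with fenbuconazole and mostly lower, by small amounts, with imazalil. Against DMSO at 10 µM, 5 of 10 were lower with fenbuconazole, 9 of 10 with imazalil and 4 of 10 with 2,4-D, where 50.1%, 48.7% and 52.8% of all probe sets were lower. Of these, 2, 2 and 0 lay wholly below the DMSO arrays (XBP1 and HERPUD1, XBP1 and SDF2L1, none), beside 5.76%, 3.66% and 3.8% of all probe sets. The medians were 0.01, -0.06 and 0.03, against medians between -0.01 and 0.004 over all probe sets. Against the other 8 concentrations 5, 10 and 6 of 10 were lower, where 50.3%, 51.5% and 52.5% of all probe sets were, with medians of -0.01, -0.07 and -0.02. By their brightest probe sets 3 of 10 (HERPUD1, XBP1 and SEL1L) were lower with fenbuconazole at an unadjusted p under 0.05 beside 3.09% of all probe sets, and for imazalil and 2,4-D 0 of 10 beside 2.85% and 3.71%. Over all 24 probe sets of the 10 genes, 0 passed the adjusted threshold in either comparison, with a smallest adjusted p of 0.619 by limma. By its brightest probe set none of the 10 genes was higher at an unadjusted p under 0.05 against the other 8 concentrations, beside 3.04%, 2.93% and 2.75% of all probe sets. Dimmer probe sets under that level were 1 of HSPA5 (0.19) and 1 of SEL1L (-0.24) with fenbuconazole, and 1 of DNAJC3 (-0.16) and 1 of HSP90B1 (-0.20) with 2,4-D. No member passed the adjusted threshold in that comparison, in which limma called 0.00366%, 0.0128% and 0.00549% of all probe sets. Since the list was picked with earlier results known and its genes share arrays, these counts are a description.

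The slope over log10 concentration, fitted to the 27 treated arrays, was below 0 for 7 of 10 genes with fenbuconazole, 10 of 10 with imazalil and 5 of 10 with 2,4-D, where 49.8%, 49.9% and 50.9% of all probe sets had a falling slope. The imazalil slopes were shallow, from -0.04 (SDF2L1, SE 0.02, limma unadjusted p = 0.025, adjusted p = 0.986) to -0.005 (HSP90B1, SE 0.01) log2 units per 10-fold rise in concentration. None of the 30 slopes passed the adjusted threshold, where the shares of all probe sets that did were 0%, 0.00183% and 0%, and 2 of 30 had an unadjusted p under 0.05 (SDF2L1 with imazalil and CRELD2 with fenbuconazole, both falling), where 2.2%, 2.31% and 1.95% of all probe sets fell at that level with fenbuconazole, imazalil and 2,4-D. The moderated F test over all 9 concentrations called 0 of 10 genes for each chemical, and 0% of all probe sets. Its smallest unadjusted p was 0.042, for CRELD2 in the fenbuconazole set, and no other of the 30 was under 0.05, beside 4.73%, 3.38% and 3.77% of all probe sets. Dimmer probe sets with an unadjusted p under 0.05 were those of HSPA5 and PDIA4 with imazalil for the slope (-0.03 and -0.04), and of HSPA5 and DNAJC3 with fenbuconazole for the F test (limma adjusted p = 1.00 for both).

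Other genes of the response were taken from lists of 95 genes, of which 91 were measured. For each chemical 0 of 91 passed limma's adjusted threshold at 10 µM against DMSO or the other 8 concentrations, or for the slope. Of all probe sets 0%, at most 0.0128% and at most 0.00183% did so. Against DMSO at 10 µM, 59, 60 and 48 of the 91 were lower with fenbuconazole, imazalil and 2,4-D (medians -0.04, -0.02 and -0.01). Over all probe sets 50.1%, 48.7% and 52.8% were lower, which is also the background for each list's counts against DMSO, here and in the next paragraph. The 91 include the 6 PERK and ATF4 outputs described there, of which 6, 6 and 5 were lower than DMSO. Against the other 8 concentrations 58, 62 and 48 of the 91 were lower. For that comparison the background was 50.3%, 51.5% and 52.5% of all probe sets. The smallest adjusted p against DMSO was 0.374, 0.794 and 1.00, and against the other 8 concentrations 0.060, 0.634 and 0.696. For each list the largest changes at 10 µM against the other 8 concentrations, none of which passed, are given next on the log2 scale. Among the 12 sensors and transducers, which detect misfolding and pass the signal on, they were NFE2L1 (-0.19) and ATF6B (-0.18) with fenbuconazole, NFE2L1 (-0.11) and ATF6B (-0.09) with imazalil, and CREB3L1 (0.15) and CREB3 (0.12) with 2,4-D. Of these 12, 7, 7 and 4 were lower than DMSO, and the sensor ATF6 itself differed from DMSO by 0.17 (SE 0.12), -0.10 (SE 0.08) and 0.06 (SE 0.10). Against the other 8 concentrations 10, 8 and 4 of the 12 were lower (medians -0.11, -0.04 and 0.01). By limma 4, 0 and 0 were lower there at an unadjusted p under 0.05, beside 3.09%, 2.85% and 3.71% of all probe sets, and 0 were higher. Among 13 other chaperones and cochaperones, with 7, 10 and 6 lower than DMSO, they were DNAJC10 (-0.23) and MANF (0.15) with fenbuconazole, CRELD1 (-0.17) and CALR (-0.12) with imazalil, and FKBP14 (-0.16) and CRELD1 (0.10) with 2,4-D. For the 11 genes of oxidative folding, which form and reshuffle disulfide bonds, 6, 7 and 7 were lower, and the largest were ERO1B (0.08) and ERP29 (-0.07) with fenbuconazole, ERO1B (0.17) and PDIA3 (-0.07) with imazalil, and ERO1A (-0.11) and QSOX1 (-0.09) with 2,4-D. The degradation branch that HERPUD1 and SEL1L belong to had 11, 11 and 9 of 18 lower, led by DERL3 (0.26) and SYVN1 (-0.17) with fenbuconazole, EDEM3 (-0.13) and SELENOS (-0.11) with imazalil, and EDEM3 (-0.16) and DERL3 (0.12) with 2,4-D. Translocation into the ER had 14, 12 and 10 of 18 lower, led by SEC63 (-0.19) and SPCS2 (-0.09) with fenbuconazole, SRP54 (-0.16) and SEC63 (-0.14) with imazalil, and SPCS2 (-0.20) and SEC61A1 (0.10) with 2,4-D. Export and retrieval had 8, 7 and 7 of 13 lower, led by SEC24D (-0.35) and SEC16A (-0.13) with fenbuconazole, SEC24D (-0.32) and KDELR3 (-0.11) with imazalil, and SEC24D (-0.23) and ARFGAP3 (-0.13) with 2,4-D. Counted against the other 8 concentrations, 5, 11 and 7 of the other chaperones and 8, 8 and 5 of the oxidative folding genes were lower. For degradation these counts were 8, 10 and 10, for translocation 12, 12 and 10, and for export and retrieval 9, 8 and 7.

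The outputs of the PERK and ATF4 branch, which does not run through ATF6 or XBP1, gave larger values than the 10 genes did. With fenbuconazole at 10 µM 6 of 6 (DDIT3, PPP1R15A, ATF3, TRIB3, CHAC1 and ASNS) were lower than DMSO, with a median of -0.42, and 5 of 6 at an unadjusted p under 0.05, beside 3.63% of all probe sets, against 3 of 6 beside 2.31% with imazalil and 0 of 6 beside 2.14% with 2,4-D. Against the other 8 concentrations the largest were TRIB3 (-0.74, SE 0.16, limma adjusted p = 0.191) and CHAC1 (-0.59, SE 0.11, adjusted p = 0.074). The smallest adjusted p of the list was that of ATF3 (-0.45, SE 0.08, adjusted p = 0.060 by limma), named here after its values were seen. With imazalil 6 of 6 were lower than DMSO (median -0.31), and the largest against the other 8 concentrations were CHAC1 (-0.39) and TRIB3 (-0.32). With 2,4-D 5 of 6 were lower than DMSO (median -0.06), and the largest were TRIB3 (-0.18) and ASNS (-0.11). The list was chosen with earlier results of these arrays known, so its direction is no independent evidence, and the difference between the branches was not tested.

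The 3 chemicals were compared at matched concentrations by the difference of their changes, each against its own DMSO arrays, over 3 pairs and 9 concentrations. Of 270 differences, 0 passed limma's adjusted threshold and 2 had an unadjusted p under 0.05, both between the triazole fenbuconazole and the imidazole imazalil. At 10 µM DNAJC3 was 0.27 higher with fenbuconazole than with imazalil (SE 0.10, unadjusted p = 0.0094, adjusted p = 1.00), where 4.56% of all probe sets had an unadjusted p under 0.05 (5.06% for fenbuconazole and 0.859% for imazalil, each against 2,4-D). The other was DNAJB9 at 1 µM, 0.42 (SE 0.19), where the DMSO arrays of fenbuconazole include the low one named above. The fit pooled the error of each gene over all 90 arrays, although the spread differed between sets. The SD over 30 arrays of DNAJB9 was 0.21, 0.10 and 0.13 with fenbuconazole, imazalil and 2,4-D, and that of DNAJC3 0.09, 0.08 and 0.07. For pairs with fenbuconazole the intervals can therefore be too narrow and the p values too small. Over the 10 genes at 10 µM the 95% intervals for fenbuconazole over imazalil ran from 0.729-fold (HERPUD1) to 1.55-fold (DNAJB9). These are the outermost bounds, and the interval of any single gene was narrower. On the log2 scale it ran from -0.08 to 0.26 for HSPA5, and from 0.07 to 0.48 for DNAJC3. For fenbuconazole over 2,4-D the outermost bounds were 0.730-fold and 1.48-fold, and for imazalil over 2,4-D, which share vehicle arrays, 0.738-fold and 1.24-fold. The fit counted those shared vehicle arrays as separate arrays of each chemical, so for imazalil against 2,4-D the error is overstated, its intervals are too wide and its part of the count of 2 in 270 is too strict. When each chemical was set against its own other 8 concentrations instead, with no vehicle array in the difference, 0 of 30 differences passed and 0.00549%, 0.00183% and 0.00366% of all probe sets did. The differences farthest from 0 relative to their error were then CRELD2, imazalil minus 2,4-D (-0.22, SE 0.08, limma unadjusted p = 0.0068, adjusted p = 1.00), and SDF2L1, fenbuconazole minus imazalil (0.26, SE 0.10, limma unadjusted p = 0.010, adjusted p = 0.952). CRELD2, fenbuconazole minus imazalil, followed (0.17, SE 0.08, limma unadjusted p = 0.040), and no other difference had an unadjusted p under 0.05. The share of all probe sets at that level was not taken for this comparison.

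The replicate number, by contrast, went with differences that passed the adjusted threshold for HERPUD1 and XBP1, by brightest probe set, in the imazalil and 2,4-D sets only. Whether arrays of equal number in different groups shared a batch of cells is not stated in the labels, and this comparison was added after the values had been seen. In the imazalil set HERPUD1 averaged 9.61 ± 0.07 (SD, n = 10 arrays) in replicate 2, against 9.44 ± 0.07 in replicate 1 and 9.39 ± 0.06 in replicate 3 (limma F test, adjusted p = 0.0057). XBP1 averaged 10.01 ± 0.06 in replicate 2, 9.90 ± 0.05 in replicate 1 and 9.83 ± 0.08 in replicate 3 (adjusted p = 0.016). In the 2,4-D set HERPUD1 (9.61 against 9.52 and 9.44, adjusted p = 0.044 by limma) and XBP1 (10.18 against 10.05 and 9.94, adjusted p = 0.0089) again stood highest in replicate 2. The replicate number held 45.7% to 66.8% of the variance of these genes in those sets, against medians of 8.20% and 8.42% over all probe sets. By brightest probe set it was called for 2 of 10 genes in each, beside 2.13% and 3.63% of all probe sets, or 3.81% and 6.67% of those above the median level, and 0.883% and 1.42% were called with replicate 2 highest, as these were. The dimmer probe set of PDIA4 was also called in the 2,4-D set (9.52 in replicate 2 against 9.34 and 9.34, 63.2% of the variance, adjusted p = 0.0040 by limma), and no other dimmer probe set was called in any set. In the fenbuconazole set 0 of 10 passed, beside 0.837% of all probe sets (1.65% above the median level, 0.385% with replicate 2 highest), and HERPUD1 came closest (8.94 in replicate 2 against 8.76 and 8.72, adjusted p = 0.059). HERPUD1, XBP1, PDIA4, SDF2L1, SEL1L and HSP90B1 stood highest in replicate 2 in all 3 sets. Of the 10 genes 6, 10 and 8 did so in the fenbuconazole, imazalil and 2,4-D sets, the last of which shares its vehicle arrays with the imazalil set. The share of all probe sets that stood highest in replicate 2, called or not, was not taken. These counts therefore have no background beside them and are a description. These steps of 0.12 to 0.20 log2 units in HERPUD1 and XBP1, between replicate 2 and the mean of the others, are about as large as the changes at 10 µM. The changes themselves compare groups with 1 array of each number, so the number is balanced in the estimates. It is not taken out of their error. The main fits held no term for it, so for HERPUD1 and XBP1 their SEs and p values can be too large. When such a term was added, none of the 10 genes was called, and the smallest adjusted p by limma was 0.237, for HERPUD1.

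**Figure D5:**
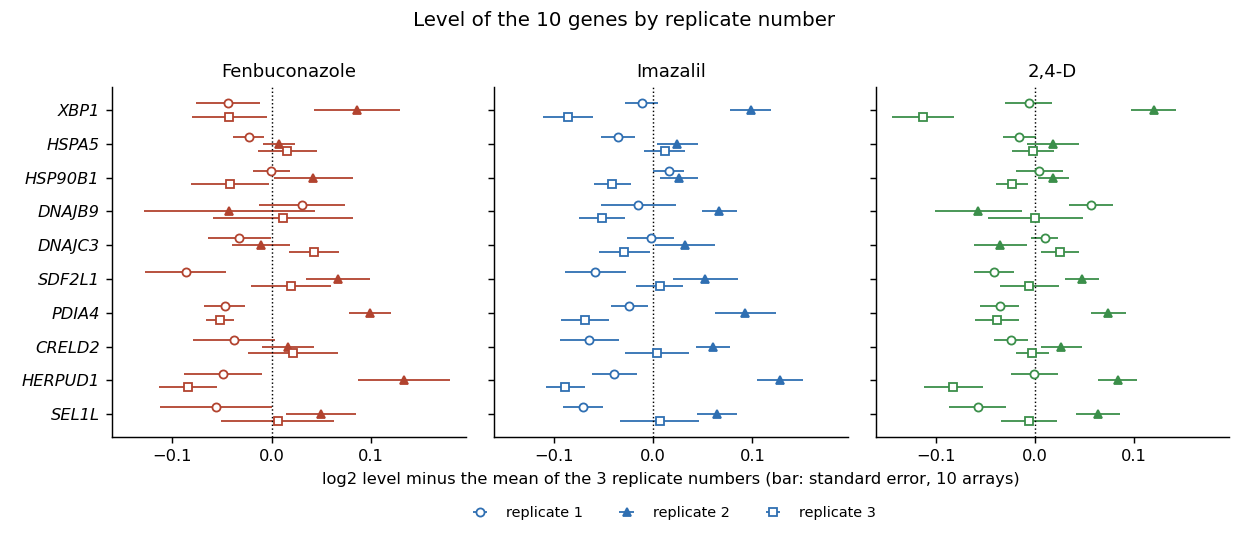
Mean log2 level of each gene over the 10 arrays of a replicate number, minus the mean of the 3 numbers, by chemical, with bars for the standard error over the 10 arrays. Replicate 2 (filled triangles) lies to the right for XBP1, PDIA4 and HERPUD1 with each chemical, while HSPA5 shows little separation.

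HSPA5 was also followed across arrays against the other members. Of 27 relations of HSPA5 with the other 9 genes (30 arrays per chemical), 1 passed after adjustment over the 27, with HSP90B1 in the 2,4-D set. There Pearson's r was 0.70 (two-sided permutation p = 1e-05, the smallest possible with 100000 resamples, adjusted p = 0.00027) and Spearman's rho 0.68 (permutation p = 7e-05, adjusted p = 0.0019). It was 0.60 without the 2 arrays farthest from the HSPA5 median, and 0.82, 0.62 and 0.88 within replicates 1, 2 and 3. The same pair gave r = 0.45 (permutation p = 0.012, adjusted p = 0.087; rho = 0.43, permutation p = 0.018, adjusted p = 0.10) with imazalil, and 0.43 without the 2 farthest arrays. With fenbuconazole r was 0.44 (permutation p = 0.018, adjusted p = 0.087) and rho 0.36 (permutation p = 0.055, adjusted p = 0.16), and r dropped to 0.22 without the 2 farthest arrays. HSPA5 and XBP1 gave r of 0.11, 0.11 and 0.09 in the 3 sets. The permutation tests shuffled the 30 arrays of a chemical freely, although these fall into 10 groups and 3 replicate numbers. Arrays may therefore not be exchangeable, and the permutation p values can be too small. After removal of the mean of each replicate number, the genes most like HSPA5 of 19773 ranked, by the mean r over the 3 chemicals, were SF3B6 (0.67), MCMBP (0.64), CCT8 (0.63), KIF23 (0.63) and CPOX (0.63), each over 30 arrays per chemical. HSP90B1 ranked 11 with 0.61. Among the other members PDIA4 ranked 1374 (0.30), DNAJB9 1400 (0.30), HERPUD1 1999 (0.26), SEL1L 2417 (0.24), DNAJC3 3634 (0.18), SDF2L1 7684 (0.05), CRELD2 7763 (0.05) and XBP1 8531 (0.03), and 3 members lay in the top 10%. The ranking took in genes of any level, dim ones included, whereas the members were all bright. Whether other bright genes rank as high was not tested, so the ranks do not set the members apart.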

How the data were processed

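Total RNA of A673 cells was hybridised by the authors to Affymetrix HT HG-U133+ PM arrays (3' amplified, biotin-labelled). The deposited values are log2 intensities from robust multi-array average (RMA) normalization of each chemical's 30 columns, with Partek and RMA named in the submitters' processing notes, and versions not given in the sources used here. RMA equalises distributions within a set, so levels are not compared between chemicals and a shift shared by all genes would not be seen. Probe sets were named from GEO's platform annotation: 40914 had 1 symbol, 864 several and 12835 none, and 102 control probe sets were left out. Arrays have no read depth, and 3 arrays a group set the precision.

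Samples were grouped by the chemical and concentration in their labels. Changes were fitted with limma 3.58.1 (R 4.3.3, lmFit and eBayes), with Benjamini-Hochberg adjustment over 54613 probe sets and a threshold of 0.05. Each concentration against DMSO and an F test came from 1 fit of a chemical's 10 groups. The comparison of 10 µM with the mean of the other 8 concentrations and the slope on log10 concentration used its 27 treated arrays. Differences between chemicals came from 1 fit of all 90 arrays. Intervals are 95%. Permutation tests used 100000 resamples (scipy 1.17.1, Python 3.11.15), and promoter windows came from RefSeq tables. Steps were tested on simulated data.

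All 10 genes are named, each through its brightest probe set (largest average over all 90 columns). Of other lists, the genes that passed or else the 2 per list and chemical with the largest change against the other 8 concentrations are named, and for HSPA5 the 5 most alike genes. Members and lists were chosen with earlier results of these data known. Of the listed genes 4, and of the markers 1, were not analysed here. Alternatives were a replicate block, a filter on dim probe sets, 1 probe set per gene, a trended robust prior, a second quantile normalization, equal array medians, other samples in the fit, other probe sets, and leaving out replicates or arrays. The comparison of replicate numbers was added after seeing the data.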

Additional observations from a re-analysis of the deposited data

How the results depend on the processing

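The count of members called was 0 in all 150 values under alternatives over 15 counts, and none of the 864 gene values passed limma's adjusted threshold. The smallest adjusted p was 0.237, for HERPUD1 at 10 µM fenbuconazole against the other 8 concentrations (-0.27) with the replicate number as a block. Same-numbered arrays deviated together only weakly (mean r of 0.04, 0.07 and 0.08 for fenbuconazole, imazalil and 2,4-D, lowest -0.14, -0.09 and -0.15), though 25, 30 and 30 of 30 arrays correlated best with their own number, a hint from the data and not the design. With the replicate block the members called stayed at 0 in all 15 counts. Over all probe sets, calls against the other 8 concentrations went from 2 to 20, from 7 to 9 and from 3 to 1 with that block, and across alternatives they ran from 0 to 20, 0 to 9 and 0 to 5. Calls against DMSO, 0 in each set, ran from 0 to 6, 0 to 4 and 0 to 0, the slope calls from 0 to 2, 0 to 2 and 0 to 0, and the F calls from 0 to 3, 0 to 5 and 0 to 0. Sign changes numbered 97 in 34 of 60 gene results, and 11 of them, in 6 results, concerned values larger than their standard error. DNAJB9 at 10 µM fenbuconazole against DMSO (0.25) ran from -0.0757 without replicate 2 to 0.502 without replicate 1, was -0.00257 without DMSO replicate 2, and gave -0.00769 and -0.0747 on its other probe sets. Other probe sets also turned DNAJC3 with 2,4-D against the other 8 concentrations (0.07 to -0.159 and -0.0894), DNAJC3 with fenbuconazole in that comparison (0.12 to -0.0105), DNAJC3 with imazalil against DMSO (-0.09 to 0.136), SEL1L with 2,4-D against DMSO (0.08 to -0.0416 and -0.102) and XBP1 with imazalil against the other 8 concentrations (-0.08 to 0.0798, on a dim probe set). The cause was not tested. Leaving out replicates in turn gave -0.33 to -0.20 for HERPUD1, -0.26 to -0.22 for XBP1 and -0.30 to -0.11 for SEL1L at 10 µM fenbuconazole against the other 8 concentrations, and -0.22 to -0.10 for XBP1 at 10 µM imazalil against DMSO.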
